A study of Mus musculus with 4 samples.

Results

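Cxcl1, Cxcl2, Cxcl3, Cxcl5, Ppbp and Pf4, the CXC chemokine genes grouped here for their action on neutrophils, were examined in the mouse colon carcinoma line MC38. They were chosen by name, with earlier results of the same comparison known, and are 6 of the 24346 gene symbols in the tables. The libraries are polyadenylated RNA from cultured cells, 2 labelled wild type (WT MC38) and 2 labelled Arid5a knockout (Arid5a-deficient MC38). No treatment or time is given for either group, and the labels do not say how the knockout was made, whether it is 1 clone, or whether the 2 libraries of a group came from separate cultures. If they did not, the errors and p-values measure only technical spread. All levels are FPKM, fragments scaled to transcript length and to library size, so genes can be compared with each other. How the submitters set library size is not given. Size factors taken from the median ratio between libraries rounded to 1 in each, so the libraries were compared without further scaling.

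CXC chemokines are small secreted proteins that bind heparan sulfate on cell surfaces and form gradients along which leukocytes move. Those that carry a glutamate-leucine-arginine (ELR) motif before the first cysteines bind the receptor CXCR2 and draw neutrophils and myeloid suppressor cells into tissue. Cxcl1, Cxcl2, Cxcl3 and Cxcl5 are ELR chemokines made by epithelial, stromal and tumour cells when NF-kB is activated. Ppbp, whose processed forms also act on CXCR2, and Pf4 are known as platelet alpha granule proteins. Pf4 belongs to the same gene cluster but lacks the ELR motif, so the grouping holds for it by position and not by receptor.

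Promoter sequences show which members share an NF-kB motif. RefSeq windows (GRCm38.p6, plus strand) were at hand for 5 of the 6 members, and Cxcl5 had none. The last 150 bases before the RefSeq transcription start are given for the 3 promoters that hold a match and for Ppbp. Ppbp is a member expressed in these cells whose promoter holds no match. Capitals mark matches to the letters GGGNNNTTCC on either strand, including overlapping ones. The stretches are chr5:90891095-90891244 for Cxcl1, chr5:90903749-90903898 for Cxcl2, chr5:90785951-90786100 for Cxcl3 and chr5:90768368-90768517 for Ppbp.
Cxcl1: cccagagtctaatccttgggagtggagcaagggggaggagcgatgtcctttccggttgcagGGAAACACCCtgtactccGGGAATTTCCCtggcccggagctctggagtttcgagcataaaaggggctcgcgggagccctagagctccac
Cxcl2: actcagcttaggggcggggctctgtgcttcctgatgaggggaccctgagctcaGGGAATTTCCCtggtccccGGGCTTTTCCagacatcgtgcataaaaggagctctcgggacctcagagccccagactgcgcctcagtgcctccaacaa
Cxcl3: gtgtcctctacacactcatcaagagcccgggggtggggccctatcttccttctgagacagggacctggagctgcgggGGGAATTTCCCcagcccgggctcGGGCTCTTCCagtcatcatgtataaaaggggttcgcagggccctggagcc
Ppbp: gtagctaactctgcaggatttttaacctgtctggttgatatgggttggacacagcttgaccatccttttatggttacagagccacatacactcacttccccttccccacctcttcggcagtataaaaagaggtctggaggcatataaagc

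Cxcl1, Cxcl2 and Cxcl3 held the same 10 bases, GGGAATTTCC, which began 71, 97 and 73 bases before the RefSeq start. In the GENCODE M21 annotation Cxcl2 starts at 90903871 and Cxcl1 at 90891241, inside their printed stretches, which end at 90903898 and 90891244. These distances therefore depend on the start used, most of all for Cxcl2. Of 27025 genes with a promoter window of 300 bases, 5.52% held a match to GGGNNNTTCC and 24 genes (0.0888%) held these 10 bases, a string picked after it was seen in the members. The windows of Ppbp and Pf4 held no match, which says only that these letters are not there. No other motif searched was found in the windows of Cxcl1 or Cxcl2. Those motifs were TATAAA, a form of the TATA box, found in Cxcl3 and Ppbp, and TGANTCA, bound by AP-1 and found in Ppbp. The last was TTGCNNAA, bound by C/EBP factors and found in Pf4. Only exact letters were sought. Cxcl1 and Cxcl2 hold CATAAA, a single base off TATAAA, so the missing match does not show that they lack a TATA box. A match to TATAAA was held by 14.2% of all promoters, to TGANTCA by 7.93% and to TTGCNNAA by 10.8%.

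The 3′ ends of the transcripts differ as well. AU-rich pentamers, ATTTA in DNA letters, mark short-lived cytokine mRNAs and are read by proteins that stabilise or destroy the message. Arid5a is known as a stabiliser of mRNA, but the pentamers counted here are not taken as its binding sites. In annotated 3′ untranslated regions (GENCODE M21, GRCm38), Cxcl2 held 11 pentamers in 734 bases and Cxcl1 7 in 592 bases. Cxcl3 held 5 in 645 bases, Cxcl5 5 in 1111 bases, Ppbp 1 in 656 bases and Pf4 1 in 123 bases. Their density per kilobase was 15 in Cxcl2, 11.8 in Cxcl1, 7.75 in Cxcl3, 4.50 in Cxcl5, 1.52 in Ppbp and 8.13 in the short region of Pf4, against a median of 1.32 over 9395 genes tested. Cxcl1 was denser than 99.3% of those genes and Ppbp than 54.3%. The 30 bases richest in the pentamer, in capitals, are given for the 3 members with the highest counts in 1 such stretch, at chr5:90892602-90892631, chr5:90905327-90905356 and chr5:90787629-90787658 (plus strand).
Cxcl1: gagggtcctATTTATTTAtgtATTTATTTA
Cxcl2: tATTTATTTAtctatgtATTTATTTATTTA
Cxcl3: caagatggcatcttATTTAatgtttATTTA

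Before any direction is read, the targeted gene checks the labels. Arid5a (ENSMUSG00000037447.16, chromosome 1, 36307733 to 36324029) was at 0.225 and 0.124 FPKM in the WT-labelled libraries and at 2.16 and 1.77 FPKM in the KO-labelled ones. It was thus higher where the label says knockout (log2 difference 1.33 ± 0.13 SE), and the part of the gene deleted is not given. It entered the fit through the KO-labelled libraries alone, so it had to differ and no test of it is given. Directions below therefore refer to the libraries as labelled and not to a loss of Arid5a. Whether the 2 labels were exchanged was not tested: the tables' column headers carry codes and no genotype, and an exchange would turn each direction given here. Depth, estimated from the value of single fragments, was 15200000 and 11800000 fragments in the WT-labelled libraries and 10200000 and 11400000 in the KO-labelled ones. Of 16 epithelial markers, 14 were below a mean of 1 FPKM and Epcam was at 0 in each of the 4 libraries. Tjp1 was at 28.8 and 28.8 FPKM in the WT-labelled libraries and at 31.3 and 32.7 FPKM in the KO-labelled ones. Jup was at 10.9 and 11.4 FPKM against 4.07 and 4.12 FPKM. The colon epithelial origin of the line thus does not show in the 14 scarce markers. Of 18 leukocyte markers, 15 had a mean over the 4 libraries below 1 FPKM and 7 were at 0 throughout, among them Itgam, the integrin of neutrophils and macrophages. Ptprc, the pan-leukocyte antigen, reached 0.0655 and 0.0854 FPKM in the WT-labelled libraries and 0 in the KO-labelled ones. The 3 markers that reached this mean were Cd14, Cd68 and S100a8. Group means, WT-labelled then KO-labelled, were 9.64 and 12.9 FPKM for Cd14 and 5.97 and 1.35 FPKM for Cd68. S100a8 was at 1.77 and 4.61 FPKM in the WT-labelled libraries and at 1.06 and 0 FPKM in the KO-labelled ones. It was called lower (limma, adjusted p = 0.0489), but not with a pseudocount of 0.1 (adjusted p = 0.077). Summed leukocyte markers were 19.9 and 23.9 FPKM in the WT-labelled libraries and 16.5 and 16.3 FPKM in the KO-labelled ones. These 3 markers held most of each sum, and the part of leukocyte markers in the results was not tested.

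The labels set WT cells against Arid5a knockout cells, and the comparison was made between the libraries under those labels. Cxcl1, Cxcl3, Cxcl5 and Ppbp were each several-fold higher in both KO-labelled libraries, Cxcl2 was detected in those libraries alone, and Pf4 was at or near 0 throughout. Summed over the 6 genes, the level was 24.2 and 21.1 FPKM in the WT-labelled libraries and 140 and 139 FPKM in the KO-labelled ones. Both KO-labelled libraries lay above both WT-labelled ones for 5 of the 6. Of the 10827 genes tested across the genome, 39.4% did so. These figures cannot be set against each other, since Cxcl2 and Pf4 were below the mean of 1 FPKM needed for testing. Cxcl5 and Ppbp reached that mean through the KO-labelled libraries alone, so their direction was fixed in part beforehand. Since the 6 genes were picked with this contrast known, their differences are given as a description and carry no test. In bulk RNA, more cells that make a transcript and more transcript per cell cannot be told apart.

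**Figure D1:**
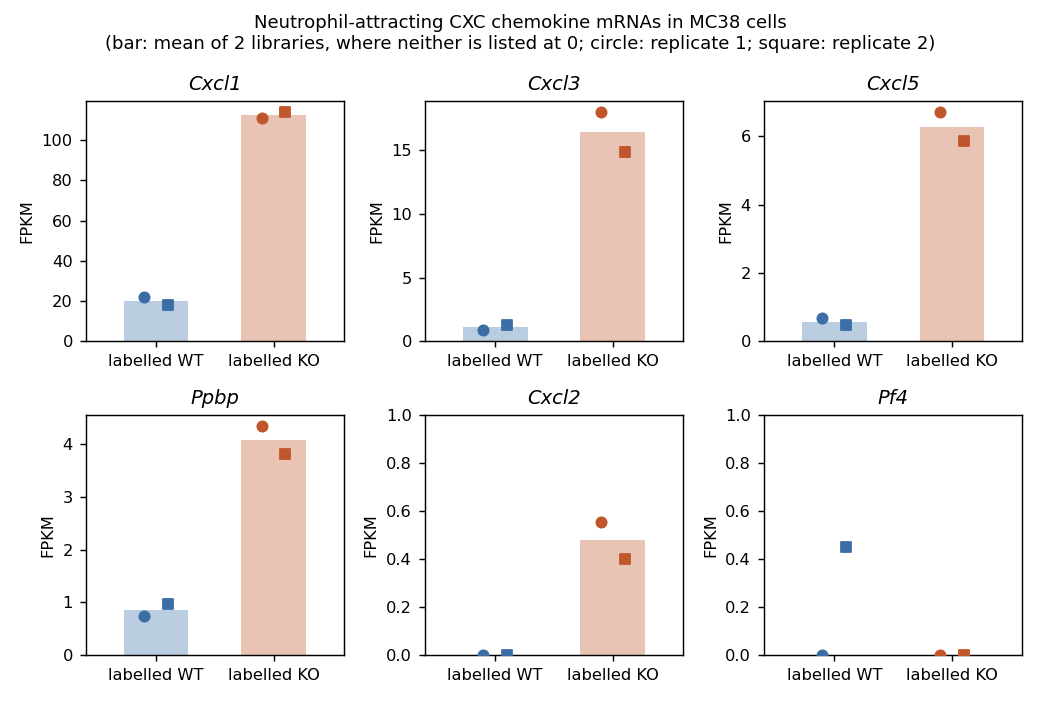
FPKM of each chemokine mRNA (y axis, a separate scale per gene) in the 2 WT-labelled libraries and the 2 KO-labelled ones (x axis). Bars are group means, drawn where neither library is listed at 0, and points are single libraries. Cxcl1 stands near 20 FPKM against 112 FPKM, Cxcl3, Cxcl5 and Ppbp move from about 1 FPKM or less to between 3.81 and 18.0 FPKM, and Cxcl2 and Pf4 stay below 1 FPKM.

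Cxcl1 (ENSMUSG00000029380.11, chromosome 5, 90891241 to 90893115), the main neutrophil chemokine of mouse stromal and tumour cells, was the most abundant of the 6 in each library. It was at 21.9 and 18.0 FPKM in the WT-labelled libraries and at 111 and 114 FPKM in the KO-labelled ones, with group means of 19.9 ± 2.75 and 112 ± 2.69 FPKM (SD, n = 2 each). The groups did not overlap, and the lowest KO value was 5.06 times the highest WT value, against a spread of 1.22 times between the WT libraries. The log2 difference was 2.44 ± 0.09 (SE), a ratio of mean FPKM of 5.64. Its rank moved from above 71.4% and 66.8% of the symbols detected in the WT-labelled libraries to above 94.0% and 94.3% in the KO-labelled ones. The values rest on about 246, 156, 842 and 962 fragments, in the order WT replicates 1 and 2 and KO replicates 1 and 2, if all came from the coding transcript of 953 bases.

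Cxcl3 (ENSMUSG00000029379.10, chromosome 5, 90786103 to 90789600), a close relative of Cxcl2 that acts through the same receptor, had the largest ratio. It was at 0.884 and 1.26 FPKM in the WT-labelled libraries and at 18.0 and 14.9 FPKM in the KO-labelled ones, a ratio of means of 15.4 and a log2 difference of 3.08 ± 0.13 (SE). The groups lay far apart, with the lowest KO value 11.9 times the highest WT value. About 11 and 12 fragments stood behind the WT values and 149 and 136 behind the KO values, so the WT level, and with it the ratio, is the less precise side.

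Cxcl5 (ENSMUSG00000029371.7, chromosome 5, 90759360 to 90761624), the chemokine also called LIX in the mouse, was at 0.674 and 0.469 FPKM in the WT-labelled libraries and at 6.71 and 5.86 FPKM in the KO-labelled ones. Again the groups did not overlap, at a ratio of means of 11.0 and a log2 difference of 2.21 ± 0.11 (SE). Its estimated fragments numbered 14 and 8 against 94 and 91.

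Ppbp (ENSMUSG00000029372.7, chromosome 5, 90768518 to 90770063), the platelet basic protein gene, had a ratio of means below that of Cxcl3 and Cxcl5. It was at 0.746 and 0.973 FPKM in the WT-labelled libraries and at 4.35 and 3.81 FPKM in the KO-labelled ones, a ratio of means of 4.75 and a log2 difference of 1.45 ± 0.11 (SE). With 1 annotated transcript of 1083 bases, its fragment numbers are the most direct of the 6, at about 10 and 10 against 39 and 38. Markers of platelets went in both directions. Of 12 platelet and megakaryocyte markers, Gp6, Treml1 and Clec1b were listed at 0 in each library, and the summed level of the 12 was 5.18 and 5.03 FPKM in the WT-labelled libraries and 2.39 and 2.25 FPKM in the KO-labelled ones. P-selectin (Selp) was at 3.40 and 3.39 FPKM against 0.361 and 0.488 FPKM. It was the only one to enter the fit, through the WT-labelled libraries alone, so no test of it is given. Without it, the other 11 summed to 1.77 and 1.64 FPKM against 2.02 and 1.77 FPKM. Thbs1, the granule protein thrombospondin, was at 0.558 and 0.44 FPKM against 1.06 and 1.06 FPKM. The platelet receptor gene Gp1bb was at 0.343 and 0.173 FPKM against 0.525 and 0.403 FPKM. Itga2b went the other way, at 0.766 and 0.657 FPKM against 0.301 and 0.217 FPKM. The part of platelet RNA in the Ppbp values was not tested.

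Cxcl2 (ENSMUSG00000058427.10, chromosome 5, 90903871 to 90905938), known as MIP-2 and strongly induced in macrophages, was listed at 0 in both WT-labelled libraries and at 0.555 and 0.4 FPKM in the KO-labelled ones. No ratio is given against a group listed at 0. These values amount to about 5 and 4 fragments. The coding transcripts of Cxcl2 and Cxcl3 share an identical stretch of 110 bases, the only pair among the 6 with more than 23 identical bases in a row. Fragments from this stretch could be given to either gene, so the few Cxcl2 fragments cannot be told apart from Cxcl3 fragments in these values.

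Pf4 (ENSMUSG00000029373.7, chromosome 5, 90772435 to 90773383), platelet factor 4, was listed at 0.447 FPKM in WT replicate 2, about 2 fragments, and at 0 in the other 3 libraries. The depth shows little below this level, so no direction is read for Pf4.

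Only Cxcl1, Cxcl3, Cxcl5 and Ppbp reached the mean of 1 FPKM needed to enter the fit. The limma threshold (adjusted p under 0.05) was passed by 4 of these 4, where 47.6% of all genes tested passed it and 24.4% passed it as higher. Without WT replicate 1 or 2, 3325 or 3216 genes passed in place of 5159. Nothing is read from the chemokines' count. The WT values of Cxcl5 and Ppbp were all below 1 FPKM, so both entered through the libraries in which they were high and had to differ. The pseudocount of 1 also compresses their differences: with 0.1 in its place the log2 difference was 3.83 for Cxcl3, 3.26 for Cxcl5 and 2.13 for Ppbp, and with 5 it was 1.82, 1.02 and 0.63.

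The makeup of the group's mRNA differed between the 2 sets of libraries. Cxcl1 made up 90.5% and 85.1% of the summed FPKM in the WT-labelled libraries and 78.9% and 82.1% in the KO-labelled ones. Cxcl3 made up 3.66% and 5.95% against 12.8% and 10.7%, without overlap. Cxcl5 took 2.79% and 2.22% against 4.79% and 4.21%. The share of Ppbp overlapped, at 3.09% and 4.61% against 3.10% and 2.74%. Read as an order of levels, the KO-labelled libraries gave Cxcl1, Cxcl3, Cxcl5 and Ppbp, each apart from the next by more than the spread of the 2 libraries. Cxcl2, at about 5 and 4 fragments, and Pf4, listed at 0, lay below them and are not put in order. In the WT-labelled libraries, Cxcl1 stood alone at the top. Cxcl3 and Ppbp overlapped there, and Cxcl5 lay just under Ppbp at fragment numbers (14 and 8 against 10 and 10) that do not separate them.

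All 6 genes lie on the plus strand of chromosome 5 within 147 kb, from 90759360 to 90905938 (GRCm38), in the order Cxcl5, Ppbp, Pf4, Cxcl3, Cxcl1 and Cxcl2. Between the genes with higher values in the KO-labelled libraries lay genes at or near 0, for which no direction can be read. Pf4 lies between Ppbp and Cxcl3. Cxcl15, an ELR chemokine of the lung that is no member here, lies between Cxcl3 and Cxcl1 and was listed at 0 in each library. Of the 6 annotated predicted genes in and beside the cluster, none appears among the symbols. The nearest listed gene before the cluster, Rassf6, a Ras association domain protein, was at 0.0372 and 0 FPKM against 0.167 and 0.200 FPKM. The nearest after it, Mthfd2l, a mitochondrial folate enzyme, was at 8.02 and 6.46 FPKM against 11.3 and 10.1 FPKM. Its log2 difference was 0.51 ± 0.11 (SE, limma, adjusted p = 0.0159), not called without WT replicate 2 (adjusted p = 0.0583) or without KO replicate 1 (adjusted p = 0.0711). Farther along, the EGF receptor ligand Ereg fell from 17.4 and 17.0 FPKM to 8.29 and 8.04 FPKM (log2 difference -0.99 ± 0.05 SE, limma, adjusted p = 0.000227). Genes beyond the cluster thus went in both directions.

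**Figure D2:**
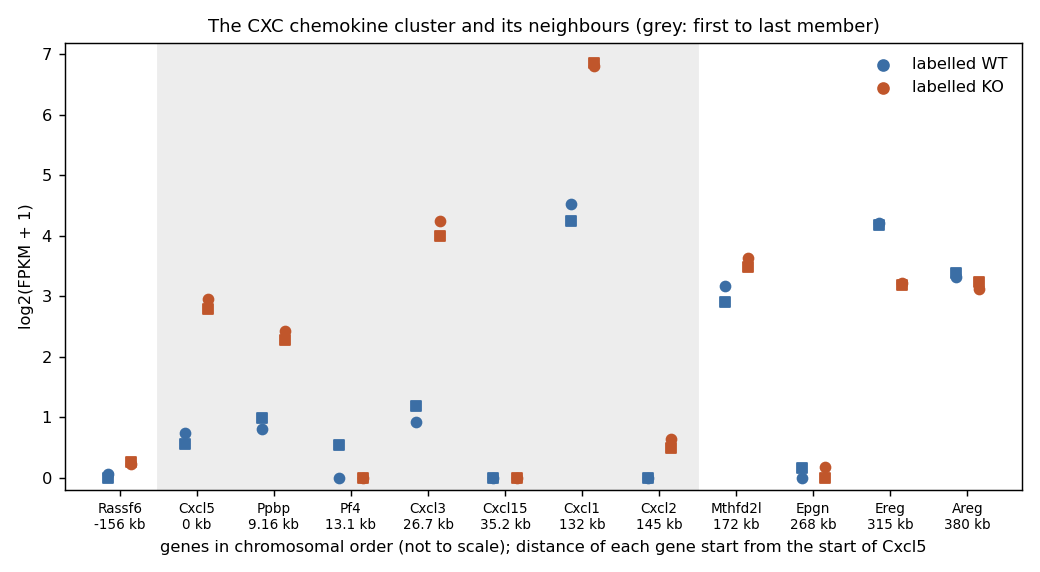
Levels as log2(FPKM + 1) (y axis) of the chemokine genes and the listed genes around them in chromosomal order (x axis, not to scale), with the distance of each gene start from that of Cxcl5 in kilobases. Circles are replicate 1 and squares replicate 2, and the grey band runs from the first to the last of the 6 genes. Pf4 and Cxcl15 sit at or near 0 between genes with higher values in the KO-labelled libraries, and Ereg, 315 kb away, is lower there.

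Among CXC chemokines outside the group, 1 was abundant. Cxcl10, an interferon- and NF-kB-induced attractant of T cells, was the only one of 9 above the filter. Its level rose from 74.1 and 67.5 FPKM to 151 and 157 FPKM, with a log2 difference of 1.11 ± 0.051 (SE, limma, adjusted p = 0.000182). Its promoter holds 2 matches to GGGNNNTTCC. Cxcl11, its relative, was at 0.283 and 0.185 FPKM against 0.491 and 0.572 FPKM, and 5 of the 9 were listed at 0 throughout. The ratio of Cxcl1 to Cxcl10 was 0.295 and 0.266 in the WT-labelled libraries and 0.730 and 0.730 in the KO-labelled ones, so Cxcl10 remained the more abundant of the pair.

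The receptor of the ELR chemokines was present at a like level in both groups. Cxcr2 was at 2.41 and 2.60 FPKM in the WT-labelled libraries and 2.36 and 2.69 FPKM in the KO-labelled ones (log2 difference 0.01 ± 0.094 SE, limma, adjusted p = 0.959). The groups overlapped fully, which does not show that the levels were equal. Cxcr1, the other receptor for ELR chemokines, and the scavenger Ackr1 were listed at 0 throughout. Cxcr2 was the only one of 9 receptors above the filter.

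Receptors upstream of these chemokines were lower or not called. Of 17 inducing cytokines and receptors in the tables, 9 were tested, 7 fell and the other 2 were not called, with a median log2 difference of -0.37 against 0.006 for all genes tested, of which 24.4% were called higher and 23.3% lower. The lipopolysaccharide receptor Tlr4 fell by 0.58 (limma, adjusted p = 0.00325), the TNF receptor Tnfrsf1a by 0.47 (adjusted p = 0.000631) and the IL-17 receptor Il17ra by 0.46 (adjusted p = 0.00308). The IL-6 receptor Il6ra fell by 0.43, with an adjusted p of 0.0607 in the fit that left out WT replicate 1. Il6st, its signalling partner, lost its call without WT replicate 2 (0.0541), and the TNF receptor Tnfrsf1b whichever library was left out (0.0774 to 0.138). Il1r1, the receptor for IL-1, was at 5.77 and 5.74 FPKM against 4.54 and 5.04 FPKM and was not called. The cytokines themselves were scarce: Il1b, Il17a and Il17f were listed at 0 in each library, and Il1a was at 0.111 and 0.0961 FPKM against 0.275 and 0.198 FPKM.

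Transcription factors of chemokine induction went both ways, with 5 of 15 tested rising and 4 falling at a median of 0.05, shares near the 24.4% and 23.3% of all genes tested. Cebpb, a C/EBP factor of acute phase genes, rose from 12.7 and 14.1 FPKM to 40.9 and 40.4 FPKM (log2 difference 1.53 ± 0.058 SE, limma, adjusted p = 0.000136). Nfkb1, the p50 precursor, rose by 0.52 and Hif1a by 0.32. The other rises were those of Nfkbiz, a cofactor of NF-kB (0.35), and Rel (0.33). Rela, the main activating subunit, was at 31.2 and 31.2 FPKM against 32 and 32.8 FPKM and was not called. Egr1, an immediate early factor, fell by 1.73, Fosl1 by 0.44, Nfkb2 by 0.20 and Jun by 0.17. Without WT replicate 1, Nfkbiz, Rel, Fosl1 and Jun lost their calls (limma, adjusted p of 0.0878, 0.111, 0.0643 and 0.156) and the number called in this list went from 9 to 5. Without KO replicate 1 it was 6, with Nfkbiz, Rel and Jun lost (adjusted p of 0.0548, 0.0954 and 0.109). Rel was not called without WT replicate 2 either (adjusted p = 0.106), Nfkbiz without KO replicate 2 (0.0775), and Jun without either of these libraries (0.0536 and 0.0831).

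Of 18 kinases, adaptors and inhibitors of NF-kB, 2 rose, 4 fell and 12 did not pass the test, at a median of -0.02, where 47.6% of all genes tested were called. Tollip, among the 2, entered the fit through the KO-labelled libraries alone. Nfkbia, the inhibitor that NF-kB itself induces, rose from 32.6 and 31.1 FPKM to 58.4 and 56.8 FPKM (log2 difference 0.84 ± 0.041 SE, limma, adjusted p = 0.000205). Tollip, which restrains IL-1 receptor signalling, was listed at 0 in both WT-labelled libraries and at 8.95 and 9.79 FPKM in the KO-labelled ones. The kinase Irak4 fell by 0.46 and Irak1 by 0.25, and the adaptor Myd88 and the inhibitor Nfkbib changed by -0.19 and -0.15. Irak1, Myd88 and Nfkbib lost their calls without WT replicate 1 (limma, adjusted p of 0.0541, 0.057 and 0.0928) and without WT replicate 2 (0.0817, 0.0825 and 0.123). The number called then went from 6 to 3 in either case. Without KO replicate 2, Myd88 (adjusted p = 0.0568) and Nfkbib (0.0797) were lost, and without KO replicate 1, Nfkbib (0.0735).

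Of 16 factors that set the stability of chemokine mRNA, 8 were called higher and 2 lower, at a median of 0.18, where 24.4% of all genes tested were higher and 23.3% lower. The count includes Arid5a itself, and the difference between these shares was not tested. Apart from Arid5a, the largest rises were those of Hnrnpd, also called AUF1, which binds AU-rich elements (0.78 ± 0.034 SE, limma, adjusted p = 0.000171), Zfp36l1, a decay factor of the tristetraprolin family (0.64, adjusted p = 0.00115), and Zc3h12a, the endonuclease Regnase-1 (0.60, adjusted p = 0.00342). The related decay factors Zfp36l2 and Zfp36 changed by -0.39 and -0.21. The call of Zfp36 was lost whichever library was left out (limma, adjusted p from 0.074 to 0.16), as was that of Khsrp (0.0547 to 0.107). The list gave 6 calls in place of 10 without WT replicate 2, where Khsrp, Srsf1, Tia1 and Zfp36 were lost (adjusted p of 0.107, 0.0783, 0.0617 and 0.16). It gave 6 also without KO replicate 1, where the same 4 were lost (0.0547, 0.0682, 0.0573 and 0.118).

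Of 9 neutrophil growth factors and acute phase genes, 3 were tested and 2 were called higher. Of all genes tested, 24.4% were called higher and 23.3% lower. Lcn2, an iron-siderophore binding protein of neutrophils and inflamed epithelium, was at 0.303 and 0.395 FPKM against 5.12 and 4.89 FPKM, a log2 difference of 2.15 ± 0.095 (SE). It entered the fit through the KO-labelled libraries alone and had to differ, so no test of it is given. Lif, a cytokine of the IL-6 family, rose by 0.27, a call lost whichever library was left out (limma, adjusted p from 0.059 to 0.105), so that the list then held 1 call. Csf3, the granulocyte growth factor G-CSF, was below the filter at 0.169 and 0.147 FPKM against 0.925 and 0.606 FPKM. Saa3, also below it, was at 0.201 and 0.263 FPKM against 0.602 and 1.63 FPKM. Il23a went the other way, at 0.565 and 0.369 FPKM against 0.0844 and 0.076 FPKM.

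Carriers of heparan sulfate hold chemokines at the cell surface. These carriers and the enzymes that build heparan sulfate rose in 4 and fell in 3 of 11 cases. The median was 0.04, and of all genes tested 24.4% were called higher and 23.3% lower. The enzymes on this list that cut chemokines were all below the filter, so none is among the 11. Gpc1, a glypican, fell from 151 and 153 FPKM to 38.8 and 41.8 FPKM (log2 difference -1.89 ± 0.044 SE, limma, adjusted p = 3.8e-05). The syndecan Sdc2 fell by 0.52 and the polymerase Ext1 by 0.44. Sdc3 rose from 3.84 and 4.11 FPKM to 8.59 and 9.11 FPKM (0.99 ± 0.070 SE, adjusted p = 0.00057), and Ext2, Sdc4 and Sdc1 rose by 0.32, 0.23 and 0.18. Sdc1 lost its call without WT replicate 1, KO replicate 1 or KO replicate 2 (limma, adjusted p of 0.104, 0.0545 and 0.087). These lists of pathway genes were drawn up with earlier results of the same libraries known, so their counts are not independent evidence.

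**Figure D3:**
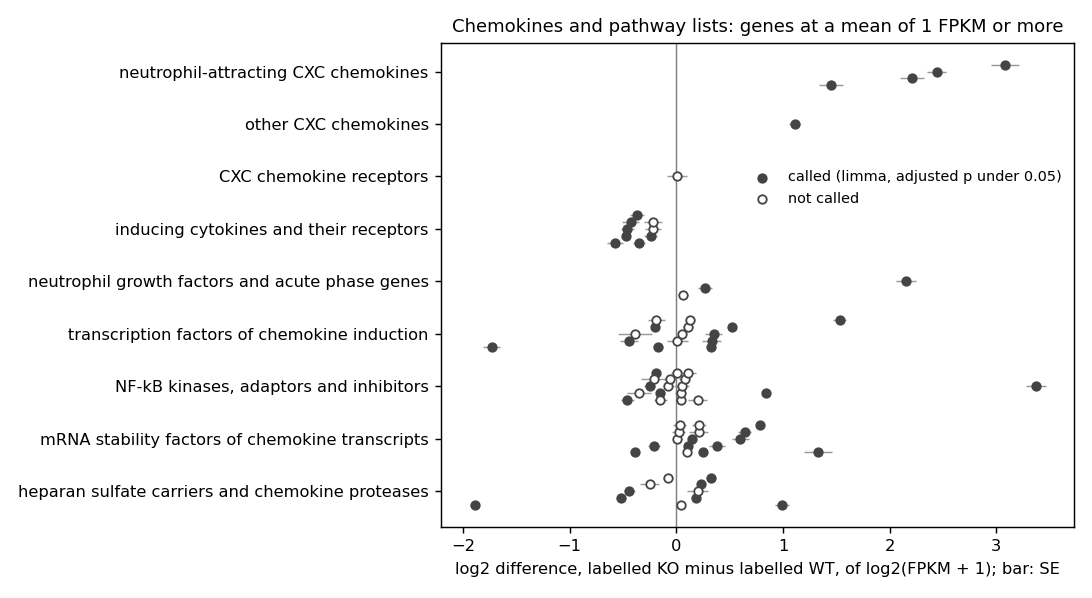
Log2 differences, KO-labelled libraries minus the WT-labelled ones, on the log2(FPKM + 1) scale (x axis) for each gene tested of the chemokine group and of the pathway lists (y axis), with bars for the SE. Filled points passed the limma threshold and open points did not. The 4 chemokines lie between 1.45 and 3.08, the tested genes among inducing cytokines and their receptors lie below 0, and the lists of transcription factors and NF-kB components lie on both sides.

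The genes whose pattern over the 4 libraries was most like that of a member were found by the distance between centred log2(FPKM + 1) values. For Cxcl1 they were Phlda2, an imprinted growth gene, at a distance of 0.235, Chac1, which degrades glutathione (0.254), and Cxcl5 (0.283). For Cxcl5 they were Chac1 (0.0394), the melanoma antigen gene Mageb4 (0.141) and Nos2, inducible nitric oxide synthase (0.174). Those of Ppbp were Cebpb (0.126), Zfpm1, a cofactor of GATA factors (0.148), and the adenylate kinase Ak1 (0.162). Those of Cxcl3 lay farther off, with Tollip at 0.438, the lysosomal protein Glmp at 0.495 and the meiotic factor Rec114 at 0.578. With 4 libraries in 2 groups, such likeness reflects mainly the size of the group difference.

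**Figure D4:**
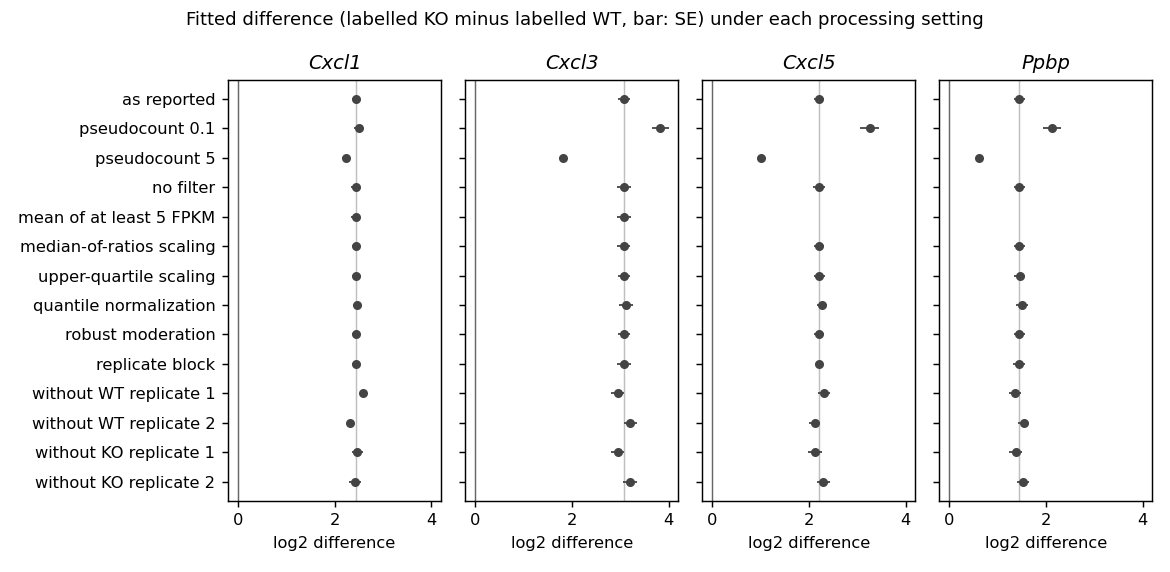
Fitted log2 difference (x axis, bars for the SE) of Cxcl1, Cxcl3, Cxcl5 and Ppbp, KO-labelled libraries minus the WT-labelled ones, under each processing setting (y axis). The grey line marks the value as reported, and a setting without a point left the gene below its filter. Each value lies above 0, and the pseudocount moves Cxcl3, Cxcl5 and Ppbp while Cxcl1 stays between 2.24 and 2.58.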

How the data were processed

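The authors deposited FPKM values for 24346 gene symbols in each of 4 libraries made with a stranded mRNA kit, per the labels' protocols. The submitters' processing notes name Cufflinks 2.2.1, SAMtools 0.1.19, Bowtie2 2.2.3, TopHat2 2.0.13 and the build mm10. Their settings, annotation and strand handling are not given in the sources used here. Values of close paralogs depend on how shared fragments were split.

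Groups were compared with limma 3.58.1 (R 4.3.3) on log2(FPKM + 1), with a mean-variance trend, for the 10827 genes whose mean reached 1 FPKM. Tests were two-sided, with Benjamini-Hochberg adjustment over all genes and a threshold of 0.05. On simulated data for this comparison (10827 genes), 91% of 67 changes of 0.5, 97% of 67 changes of 1 and 100% of 66 changes of 2 (log2) were recovered, and 12 of 204 calls were false. Depth was fitted from the value of 1 fragment against transcript length in genes with 1 annotated transcript (GENCODE M21; 158 of 208, 154 of 183, 157 of 180 and 193 of 234 genes at 1 fragment lay within 3% of the fitted line). Fragment numbers for members are estimates that assume the main coding transcript. Symbols matched 1 annotated gene in 95.6% of cases.

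The members and gene lists were chosen with earlier results of these data known. Named were the 6 members, Arid5a, up to 4 called genes per list with the largest change, the 3 nearest patterns per tested member and the neighbours of the cluster; other names were chosen after their values were seen. Alternatives covered the pseudocount, filter, scaling, variance moderation, replicate block and omission of each library. Python 3.11.15, numpy 2.4.6, pandas 2.3.3 and matplotlib 3.10.9 were used.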

Additional observations from a re-analysis of the deposited data

How the results depend on the processing

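The differences of Cxcl1, Cxcl3, Cxcl5 and Ppbp had the same sign in each of 50 refitted values, which the choice of the genes fixes in part, and the 3 scalings gave 2.44 to 2.46, 3.07 to 3.12, 2.21 to 2.27 and 1.45 to 1.51. Of these scalings, the one by median ratios changed almost nothing, since its size factors rounded to 1 in each library. At a filter of 5 FPKM, Cxcl5 and Ppbp were not tested. Leaving out 1 library gave 2.31 to 2.58, 2.95 to 3.21, 2.12 to 2.31 and 1.36 to 1.54. For Cxcl2, with no test, the difference ran from 0.13 to 2.52 with the pseudocount. That of Pf4 was -0.27, and it was 0 without WT replicate 2, the only library with a value. Of 756 refitted values of 59 other named genes, 65 lost the call and 0 reversed. Leaving out 1 library gave 3216 to 3974 genes called, 1666 to 2007 higher and 1550 to 1985 lower, with the fewest without WT replicate 2, where the lone library is assumed to vary like the other group. The lists then held 1 call (growth factors), 5 to 9 (transcription factors), 3 to 6 (NF-kB components) and 6 to 8 (mRNA stability). With no filter the other CXC chemokines held 2 calls and the growth factors 4, of which 3 were higher and 1 lower. At 5 FPKM the growth factors held 1. With the replicate number as a block, 4673 genes were called, Jun (adjusted p = 0.0562), Zfp36 (0.0529) and S100a8 (0.107) lost their calls, and no call of a member was lost. Same-numbered libraries share only a number, and their deviations correlated at 0.138 across genes. Depth limits Cxcl2 and Pf4, at 5 fragments or fewer per library.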

Other observations

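The sequence features of the chemokine genes were looked up in other genes, as a description chosen after the features were seen. Of 520 other genes tested whose promoter window held a match to GGGNNNTTCC, 112 (21.5%) were called higher in the KO-labelled libraries and 145 (27.9%) lower. Among all 8316 other genes tested with a promoter window, 24.8% were called higher and 23.0% lower. Of the 8 other genes tested that held the 10 bases shared by Cxcl1, Cxcl2 and Cxcl3, 1 was called higher and the others were not called. In 221 other genes tested, the 3′ untranslated region was at least as dense in ATTTA as that of Cxcl3. Of these, 50 (22.6%) were called higher and 52 (23.5%) lower, against 24.7% and 23.4% of 9391 genes with an annotated region. The differences between these shares were not tested.

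Cd68, a lysosomal protein of macrophages, fell from 6.14 and 5.80 FPKM to 1.03 and 1.67 FPKM (log2 difference -1.58 ± 0.15 SE, limma, adjusted p = 0.00118), while Cd14, a lipopolysaccharide coreceptor, was at 9.18 and 10.1 FPKM against 12 and 13.8 FPKM, a call lost without WT replicate 1 (adjusted p = 0.0917) or KO replicate 2 (adjusted p = 0.0618).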
